A study of Mus musculus with 37 samples.

Results

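The Fanconi anaemia genes encode a DNA repair pathway, and 10 of them were followed in mouse PGCs (primordial germ cells, from which eggs and sperm descend) that had lost Dnmt1, the enzyme that copies DNA methylation onto the new strand at replication. The members were taken by symbol: Fancm, Fanca, Fancg, Fancb, Fancl, Fancc, Fance, Fancf, Fancd2 and Fanci, all 10 found among the 24318 genes of each expression table. The rule used no measured value. PGCs marked by an Oct4-driven green reporter (Oct4-IRES-Gfp) were sorted from embryos of Dnmt1 2lox homozygous mothers and fathers carrying Blimp1-Cre, a driver active in germ cells but not only there. At E11.5 there were 6 female and 4 male libraries of the conditional knockout, called DCKO and labelled Dnmt1 -/-, and 4 female and 4 male control libraries labelled wild type. At E10.5 there were 2 female and 1 male DCKO libraries and 2 female and 2 male control libraries. The reporter and the sort were common to both genotypes, and the sources used here do not give the controls' floxed or Cre alleles. Nor is it stated whether each library came from its own embryo, so p-values measure the spread between these libraries, which may be technical in part.

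In this pathway a DNA crosslink that blocks replication is recognised by the translocase Fancm, which anchors the core complex on DNA. The core complex, built from Fanca, Fancg, Fancb, Fancl, Fancc, Fance and Fancf, is a ubiquitin ligase whose catalytic subunit is Fancl, and it modifies the paired proteins Fancd2 and Fanci, after which nucleases and homologous recombination remove the lesion. Mice lacking members of the pathway have few germ cells, a cell type that divides fast at these stages, and the germ cell deficient (gcd) mouse carries a mutation of Fancl.

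No member passed the threshold for a difference between DCKO and control PGCs at either stage. Levels are in RPKM, reads scaled by gene length and library size, as deposited. Tests used limma on log2(RPKM + 1), with Benjamini-Hochberg adjustment over all genes that averaged 1 RPKM or more, 12667 at E11.5 and 11584 at E10.5. All 10 members passed this filter at both stages.

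Since Dnmt1 acts at CpG sites, the CpG content of the members' start regions is shown first, from the largest and the smallest count to the X-linked member. RefSeq promoters (GRCm38.p6, 250 bases before to 50 after the start) were matched by symbol for 9 of the 10 members, all but Fancd2. They held from 3 to 26 CpG sites, with a median of 19, beside a median of 7 over all 32851 promoters of this length. Fancm held 26 and Fancl 3, while Fancb, on chromosome X, held 13. The files hold no methylation values, and whether these sites were methylated in PGCs was not measured. In the sequences below each CpG is in capitals. The positions are chr12:65075353-65075652 for Fancm, chr11:26386834-26387133 for Fancl and chrX:164980342-164980641 for Fancb, all on the plus strand.
Fancm: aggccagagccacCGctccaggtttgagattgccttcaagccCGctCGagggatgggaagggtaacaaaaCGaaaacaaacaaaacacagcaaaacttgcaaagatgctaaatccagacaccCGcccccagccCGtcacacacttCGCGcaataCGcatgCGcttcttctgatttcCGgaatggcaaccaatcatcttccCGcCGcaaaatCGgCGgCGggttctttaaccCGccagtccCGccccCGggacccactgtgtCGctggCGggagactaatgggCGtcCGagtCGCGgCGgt
Fancl: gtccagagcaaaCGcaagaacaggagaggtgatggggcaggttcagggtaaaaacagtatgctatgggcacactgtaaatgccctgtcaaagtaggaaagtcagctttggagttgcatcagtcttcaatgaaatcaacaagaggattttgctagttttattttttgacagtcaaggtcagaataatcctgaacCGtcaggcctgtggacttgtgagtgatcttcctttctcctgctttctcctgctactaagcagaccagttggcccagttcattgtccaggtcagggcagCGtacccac
Fancb: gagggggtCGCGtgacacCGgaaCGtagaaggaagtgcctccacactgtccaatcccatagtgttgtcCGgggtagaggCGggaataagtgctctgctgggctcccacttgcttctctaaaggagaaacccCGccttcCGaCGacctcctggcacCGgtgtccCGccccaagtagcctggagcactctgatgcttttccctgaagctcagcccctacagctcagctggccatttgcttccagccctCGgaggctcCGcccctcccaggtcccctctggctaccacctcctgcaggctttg
The other member promoters held 25 CpG sites in Fancf, 24 in Fance, 23 in Fancc, 19 in each of Fanca and Fancg, and 17 in Fanci. Fancl was thus the CpG-poor member, and 23.3% of all promoters held fewer sites than it did. A search on both strands for the E2F motif in the forms TTTCGCGC and TTTGGCGC found it in 0 of the 9 member promoters and in 0.813% of all promoters. A missing match says only that these letters are not in the 300 bases searched.

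Several libraries stood apart before any comparison was made. Between 8277 and 13200 genes reached 1 RPKM in an E11.5 library and between 9125 and 11095 in an E10.5 library, and the deposited RPKM summed to between 516450 and 1027688 and between 669740 and 1121158 at these stages. The 3 E11.5 libraries with the fewest genes were male DCKO 4 with 8607, male DCKO 1 with 9668 and male control 4 with 8277. At E10.5 female DCKO 1 with 9412 and male control 1 with 9125 had the fewest. The 12 germ cell markers summed to between 1806 and 4700 RPKM in E11.5 DCKO and between 360.1 and 4697 RPKM in control libraries, and none of the 12 was at 0 throughout a group. The mean log2 level of other cells' markers was 4.00 in female DCKO 4, beside 5.31 for germ cell markers, and 4.66 in male control 3, beside 3.34 for germ cell markers. In the remaining E11.5 libraries other cells' markers lay between 0.70 and 2.57. Dnmt1, the check of the labels, lay between 13.0 and 59.4 RPKM in E11.5 DCKO and between 72.9 and 296 RPKM in control libraries, and between 14.9 and 29.6 RPKM in E10.5 DCKO and between 74.1 and 107 RPKM in control libraries. In sorted bulk samples fewer cells of a type and less RNA per cell cannot be told apart.

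Fancm, the anchor, had the tightest values of the members at E11.5. It lay at a lowest 4.63, a median 9.19 and a highest 22.0 RPKM in the 10 DCKO libraries, and at 4.70, 9.84 and 14.7 RPKM in the 8 control libraries. The groups overlapped, and the highest value was that of male DCKO 4. Its mean was 10.8 ± 5.07 RPKM over DCKO libraries (SD, n = 10), against 9.59 ± 2.89 RPKM over control libraries (SD, n = 8). The log2 difference was 0.14 (SE 0.29, 95% interval -0.46 to 0.75, limma adjusted p = 0.991). The residual SD of Fancm on the log2 scale was 0.49, and 9.66% of the genes tested had a lower one, beside a median of 0.96 over all genes tested.

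Fanca, which with Fancg forms part of the scaffold of the core complex, had the highest single value of any member. Male DCKO libraries had 74.5, 8.21, 7.99 and 29.0 RPKM, against 6.39, 2.61, 5.85 and 31.9 RPKM in male controls. Female DCKO libraries ranged from 1.44 to 19.8 RPKM with a median of 5.97, against 6.16, 7.49, 8.09 and 7.19 RPKM in female controls. The 3 highest values in the table of 18 were those of the 3 libraries with the fewest genes, 2 of them DCKO and 1 control, and the part of that in the level was not tested. Fanca had a mean of 16.2 ± 22.1 RPKM over DCKO libraries (SD, n = 10), against 9.47 ± 9.23 RPKM over control libraries (SD, n = 8), a log2 difference of 0.45 (SE 0.51, 95% interval -0.62 to 1.52, limma adjusted p = 0.968). Leaving out 1 library moved the log2 difference of Fanca between 0.14, without male DCKO 1, and 0.77, without male control 4.

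Fancg, the partner of Fanca, was the lowest member at E11.5. Male DCKO libraries had 0.385, 0.625, 2.36 and 0 RPKM, against 6.47, 1.16, 4.56 and 0.0438 RPKM in male controls. Female DCKO libraries had 2.65, 16.0, 0.763, 9.07, 5.59 and 0 RPKM, against 0.461, 3.88, 5.39 and 6.13 RPKM in female controls. Fancg was listed at 0 in male DCKO 4 and female DCKO 6, which an estimate that failed could also give. The groups overlapped, with 5 of 10 DCKO and 2 of 8 control libraries under 1 RPKM. The log2 difference was -0.43 (SE 0.58, 95% interval -1.64 to 0.79, limma adjusted p = 0.972). Leaving out 1 library moved it between -0.21, without female DCKO 6, and -0.69, without male control 4.

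Fancb and Fancl, which form the catalytic part of the core complex with Fancl as the ligase, varied less between libraries than most genes tested. Fancb had a lowest value of 1.96, a median of 6.48 and a highest of 14.3 RPKM in DCKO, against 3.29, 6.24 and 8.54 RPKM in control PGCs. Fancl had 3.36, 8.53 and 15.9 RPKM in DCKO, against 3.95, 9.10 and 11.6 RPKM in control PGCs. For both genes the DCKO values spanned those of the controls on each side. Fancb differed by 0.17 (SE 0.35, 95% interval -0.57 to 0.91) and Fancl by 0.03 (SE 0.34, 95% interval -0.69 to 0.74) on the log2 scale, with limma adjusted p = 0.991 and 0.995. Their residual SDs, 0.64 for each, were below the median of 0.96 of all genes tested.

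Fancc, Fance and Fancf make up the arm of the core complex that binds the substrate pair, through Fance. Fancc had a lowest value of 0.0339, a median of 4.15 and a highest of 10.1 RPKM in DCKO, against 0.107, 5.84 and 11.3 RPKM in control PGCs. Fance had 1.48, 8.82 and 19.5 RPKM in DCKO, against 0.176, 9.64 and 19.8 RPKM in control PGCs. Fancf had 1.72, 5.66 and 31.9 RPKM in DCKO, against 0.843, 7.97 and 16.1 RPKM in control PGCs. The groups overlapped for all 3 genes, over nearly their whole ranges for Fancc and Fance. For Fancf, male DCKO 2 with 19.8, female DCKO 4 with 17.9 and female DCKO 6 with 31.9 RPKM lay above every control. The lowest value of Fancc was that of male DCKO 1, and the lowest of Fance and of Fancf were those of male control 4, both among the 3 libraries with the fewest genes. The log2 differences were -0.46 for Fancc (95% interval -1.61 to 0.70), 0.14 for Fance (95% interval -1.06 to 1.34) and -0.05 for Fancf (95% interval -1.17 to 1.07), with limma adjusted p of 0.969, 0.993 and 0.995. That of Fancc moved between -0.15, without male DCKO 1, and -0.81, without male control 4.

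Fancd2, the main substrate of the ligase, was the most abundant member at E11.5 in both genotypes and had the smallest unadjusted p. Female DCKO libraries had 15.6, 23.0, 12.6, 6.77, 16.9 and 11.1 RPKM, against 22.0, 22.3, 23.8 and 24.1 RPKM in female controls. Male DCKO libraries had 0.558, 9.28, 10.8 and 66.6 RPKM, against 13.2, 19.9, 6.11 and 53.2 RPKM in male controls. Among females 5 of 6 DCKO values lay below every control value. The lowest of them, 6.77 RPKM, was that of female DCKO 4, and the lowest control value, 6.11 RPKM, that of male control 3. These were the 2 libraries highest in other cells' markers. In each male group 1 library was far above the rest, male DCKO 4 and male control 4, which were the 2 libraries with the fewest genes. Fancd2 had a mean of 17.3 ± 18.3 RPKM over DCKO libraries (SD, n = 10), against 23.1 ± 13.7 RPKM over control libraries (SD, n = 8). The log2 difference of -0.76 (SE 0.54, 95% interval -1.90 to 0.37) had an unadjusted limma p of 0.175 and an adjusted p of 0.946, and the exact permutation p, two-sided, was 0.221 (43758 permutations).

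The value of Fancd2 turned on single libraries. Without male DCKO 4, which had 66.6 RPKM, the log2 difference was -1.21 (SE 0.45, limma adjusted p = 0.839). Exact permutation then gave p = 0.0474 over 24310 splits. Without male DCKO 1, which had 0.558 RPKM, it was -0.30 and the exact permutation p was 0.384. It was -0.50 without male control 4 and -0.48 without all 3 of these libraries. The omission of all 3 was chosen after seeing the data. With both male DCKO 4 and male control 4 left out, the plain difference in mean log2 level, which has no sex term, was -0.79. The exact permutation p was then 0.110. Leaving out female DCKO 4 and male control 3, the 2 libraries highest in other cells' markers, gave -0.86 by the same measure. The exact permutation p there was 0.161. The sign was negative under each of these, and no adjusted limma p for Fancd2 was below 0.587 over 32 alternatives. Fancd2os, the gene at the end of Fancd2 on the opposite strand, had 3.48, 8.81 and 37.8 RPKM as its lowest, median and highest in DCKO, against 2.22, 7.43 and 26.9 RPKM in control PGCs. The labels give no strand setting, so reads of Fancd2 and Fancd2os where they overlap cannot be told apart.

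Fanci, the partner of Fancd2, had a lowest value of 0.114, a median of 10.1 and a highest of 17.0 RPKM in E11.5 DCKO, against 5.05, 11.6 and 16.1 RPKM in control PGCs. The lowest DCKO value was that of male DCKO 1, and the other 9 DCKO libraries lay between 6.94 and 17.0 RPKM, within or just above the control range. The log2 difference of Fanci was -0.38 (SE 0.43, 95% interval -1.29 to 0.53, limma adjusted p = 0.969), and 0.05 without male DCKO 1. Across the 18 libraries the log2 levels of Fancd2 and Fanci had a Pearson r of 0.59 (permutation p = 0.0367) and a Spearman rho of 0.10 (permutation p = 0.707), the 1 relation tested. Without male DCKO 1 and male DCKO 4, the 2 libraries farthest from the median of Fancd2, r was -0.09 over 16 libraries. The Pearson r was thus not kept without these 2 libraries. They were not left out singly, so the part of each was not tested. Male DCKO 1 had the lowest value of both genes. Male DCKO 4 had the highest Fancd2, 66.6 RPKM, but 9.74 RPKM of Fanci, near the median of 10.4 RPKM over the 18 libraries.

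**Figure D1:**
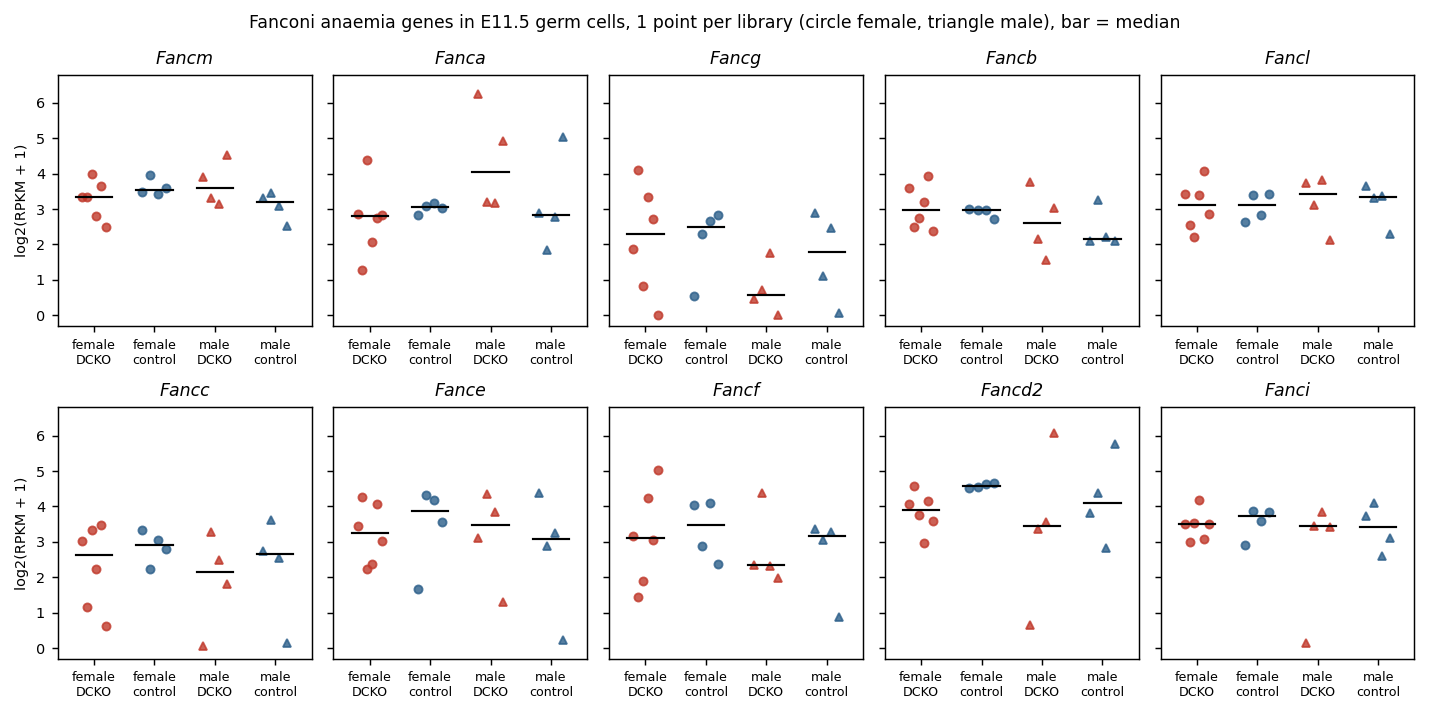
Level of each member in E11.5 PGCs as log2(RPKM + 1), 1 panel per gene and 1 point per library, with female libraries as circles, male libraries as triangles, DCKO in red, control in blue and a bar at the group median. DCKO and control points overlap in every panel, Fancd2 is tight in female controls at 22.0 to 24.1 RPKM, and single male libraries lie far out for Fanca, Fancd2 and Fanci.

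The panels of E11.5 levels show the same order of genes in both genotypes at the top and the bottom. By median, Fancd2, Fanci, Fancm, Fance and Fancl ran from 11.8 to 8.53 RPKM in DCKO and from 22.2 to 9.10 RPKM in control PGCs, and Fancg was last at 1.56 RPKM in DCKO and 4.22 RPKM in control PGCs. In between, Fanca, Fancb, Fancf and Fancc ran from 7.10 to 4.15 RPKM in DCKO, and Fancf, Fanca, Fancb and Fancc from 7.97 to 5.84 RPKM in control PGCs. Every neighbour in either order overlapped the next in its library range. The share of tested genes with a lower median was 60.8% for Fancd2 and 24.6% for Fancg in DCKO, and 73.8% and 36.9% in control PGCs.

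Over all 10 members at E11.5 the genotype comparison gave 0 calls at an adjusted p under 0.05, beside 3 of 12667 genes or 0.0237% of all tested, Dnmt1 among them. At an unadjusted p under 0.05 it gave 0 of 10 members, beside 5.46% of all genes. The log2 difference was above 0 for 5 of 10 members, with a median of -0.01, beside 45.0% of all genes and a median of -0.06. Without male control 4 it was above 0 for 3 of 10 members with a median of -0.31, beside -0.11 over all genes. With library weights it was above 0 for 2 of 10 with a median of -0.12, beside -0.08 over all genes. Without male DCKO 4, 1 of 10 members had an unadjusted limma p under 0.05, beside 736 of 12667 genes. Without both male DCKO 4 and male control 4 it was also 1 of 10, beside 802 of 12681 genes. Without the 3 libraries with the fewest genes it was 0 of 10, beside 799 of 12504 genes. The exact permutation p for single members lay between 0.221 for Fancd2 and 0.984 for Fancf, with no adjustment. With 10 members a count of 0 lies near this background. The 95% intervals bound what could have been missed, and the outermost limits were -1.90 for Fancd2 and 1.52 for Fanca on the log2 scale. Most markers of other cells lay below 0 in this comparison. Above 0 were 0 of 5 gonadal soma markers tested (median -0.44), 1 of 7 mesenchyme (-0.27) and 1 of 4 erythroid (-0.26). So were 1 of 3 macrophage (-1.24), 2 of 5 endothelium (-0.002) and 7 of 12 germ cell markers (0.06). The part of these in the members' values was not tested.

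**Figure D2:**
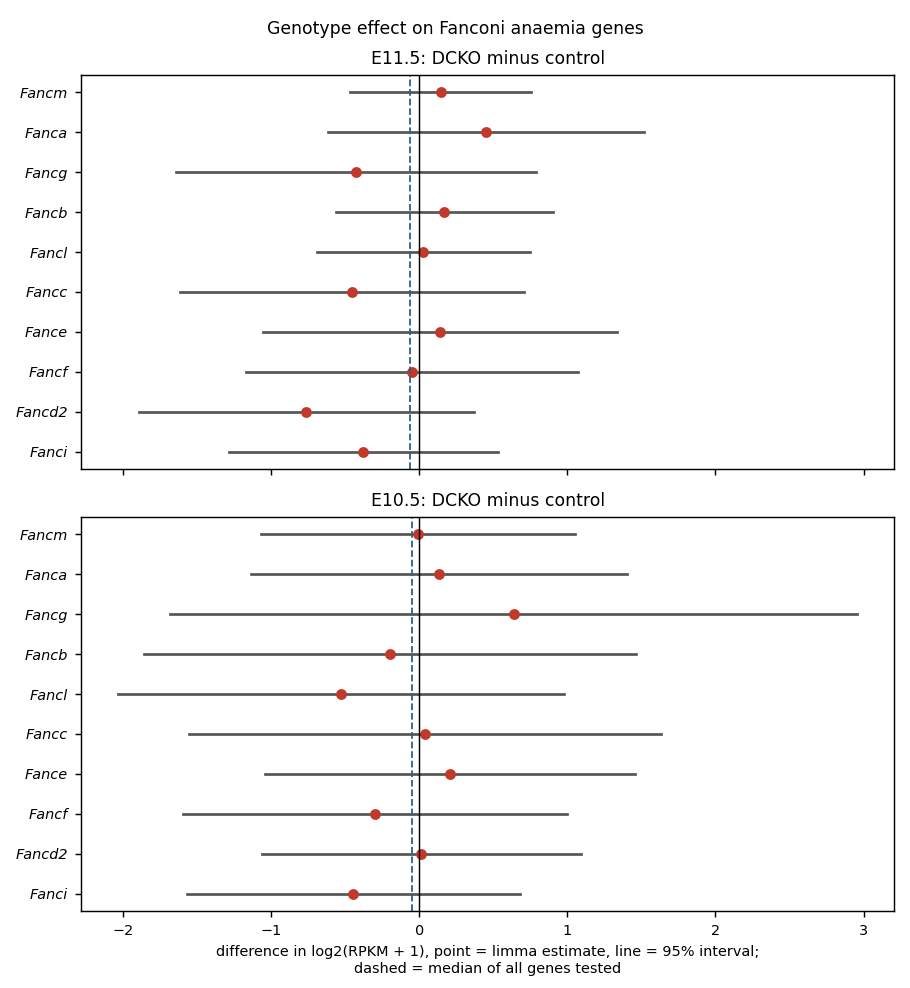
Difference in log2(RPKM + 1), DCKO minus control, for each member at E11.5 (top) and E10.5 (bottom); points are limma estimates, lines are 95% intervals and the dashed line is the median of all genes tested. Every interval includes 0, and the shortest at E11.5 is that of Fancm, from -0.46 to 0.75.

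As the plot of genotype differences shows, E10.5 also gave no interval that left out 0, and the intervals were wider than at E11.5 for every member but Fancd2. The anchor Fancm had 11.1, 10.1 and 10.01 RPKM in the male and both female DCKO libraries, against 12.2 and 13.496 RPKM in male and 8.73 and 9.80 RPKM in female controls. The DCKO values lay inside the control range, and the log2 difference was -0.01 (SE 0.47, limma adjusted p = 0.999).

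In the scaffold of the core complex, Fanca had 5.89 RPKM in the male and 7.48 and 7.80 RPKM in the female DCKO libraries, against 5.95 and 3.22 RPKM in male and 6.17 and 9.54 RPKM in female controls. Fancg had 9.87, 0.0573 and 6.37 RPKM in the same DCKO libraries, against 0.0212 and 5.02 RPKM in male and 1.88 and 3.45 RPKM in female controls. Fanca was even, while Fancg was near 0 in 1 library of each genotype and had the widest interval of the members, from -1.68 to 2.96 around 0.64. Fancb had 2.00, 3.70 and 6.83 RPKM in DCKO, against 0.110 and 3.81 RPKM in male and 8.68 and 7.52 RPKM in female controls. Fancl had 5.13, 26.3 and 5.42 RPKM in DCKO, against 18.6 and 12.6 RPKM in male and 9.45 and 14.5 RPKM in female controls. For Fancl 2 of 3 DCKO libraries lay below every control and the other above every control, with a log2 difference of -0.53 (95% interval -2.04 to 0.97). The high library, female DCKO 1, was the E10.5 DCKO library with the fewest genes, and the part of that was not tested.

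Among the subunits of the substrate-binding arm, Fancc had 2.79, 6.17 and 2.19 RPKM in DCKO, against 0.754 and 4.53 RPKM in male and 4.55 and 3.89 RPKM in female controls. Fance had 9.09, 6.33 and 14.4 RPKM in DCKO, against 6.64 and 5.18 RPKM in male and 11.2 and 8.59 RPKM in female controls. Fancf had 6.76, 6.16 and 5.79 RPKM in DCKO, against 4.64 and 12.8 RPKM in male and 7.41 and 8.72 RPKM in female controls. All 3 overlapped between genotypes, with log2 differences of 0.04 for Fancc, 0.21 for Fance and -0.30 for Fancf.

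The substrate pair at E10.5 began with Fancd2 at 21.8 RPKM in the male and 12.1 and 20.6 RPKM in the female DCKO libraries, against 28.4 and 12.9 RPKM in male and 15.6 and 18.2 RPKM in female controls. Its log2 difference was 0.01 (SE 0.47, 95% interval -1.06 to 1.09, limma adjusted p = 0.998). Fanci had 9.42, 9.55 and 9.24 RPKM in DCKO, against 7.19 and 9.72 RPKM in male and 17.5 and 17.9 RPKM in female controls. The DCKO values of Fanci were nearly equal and lay between those of the male controls, below both female controls. Its log2 difference was -0.45 (SE 0.49, 95% interval -1.57 to 0.68, limma adjusted p = 0.991). Without the 1 male DCKO library it was -0.85.

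**Figure D3:**
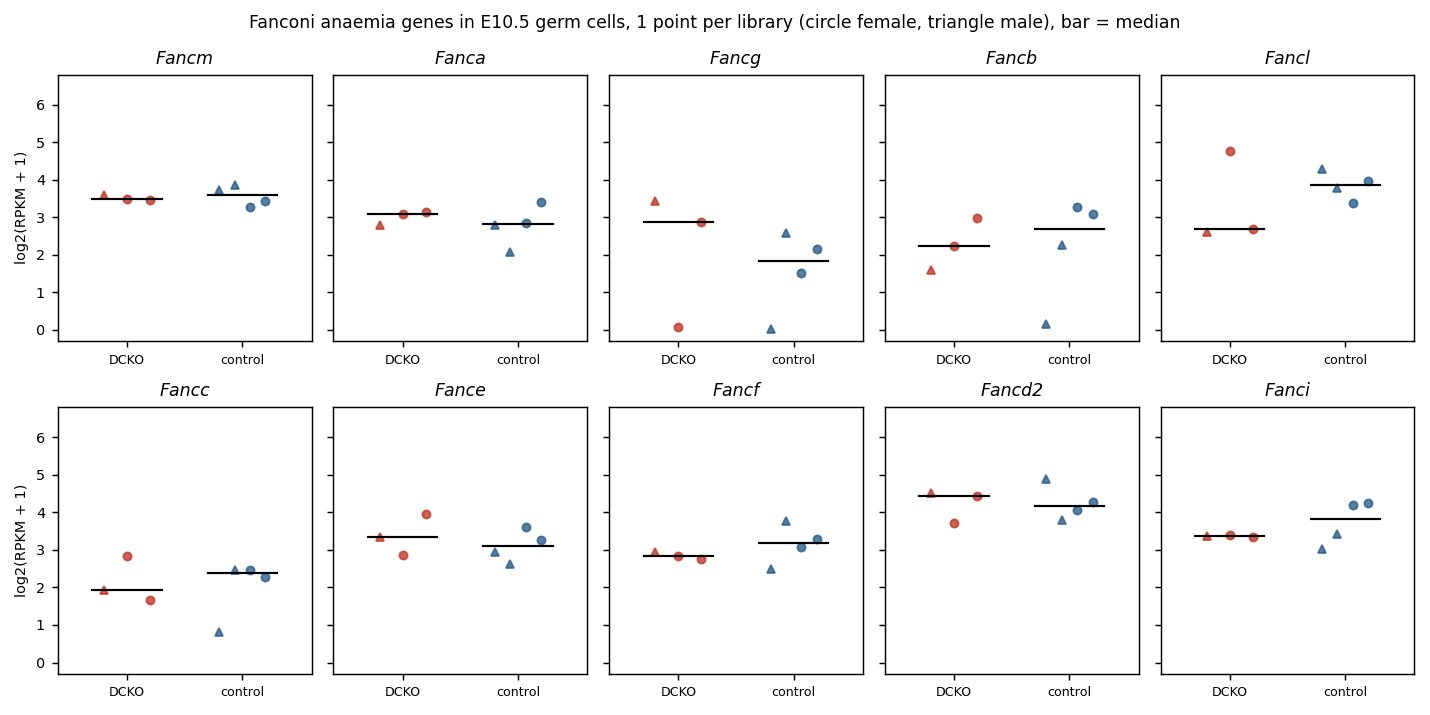
Level of each member in E10.5 PGCs as log2(RPKM + 1), with 3 DCKO libraries in red left of 4 control libraries in blue, circles for female, triangles for male and a bar at the group median. The groups overlap for every member, and the points near 0 belong to Fancg in female DCKO 1 and male control 1 and to Fancb in male control 1.

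The panels of E10.5 levels cover 7 libraries, and over them 0 of 10 members were called, beside 0 of 11584 genes or 0% of all tested. At an unadjusted p under 0.05 there were again 0 of 10, beside 3.09% of all genes. The log2 difference was above 0 for 5 of 10 members with a median of 0.00, beside 46.8% of all genes and a median of -0.05. Exact permutation over 35 splits gave p from 0.343 for Fanci to 1.0 for Fancb, where 0.0286 is the smallest this design allows. Dnmt1 was itself not called at E10.5, at a log2 difference of -2.07 and with groups that did not overlap. Its lowest limma adjusted p over 20 alternatives was 0.115. A count of 0 members called at E10.5 therefore says little about the members.

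By stage, values are set side by side without a test, because each table may carry its own normalization. Fancd2 had the highest median of the members in all 4 groups, at 11.8 RPKM in E11.5 DCKO and 20.6 RPKM in E10.5 DCKO, and at 22.2 RPKM in E11.5 and 16.9 RPKM in E10.5 controls. Fancm stayed close, at 9.19 RPKM in E11.5 and 10.1 RPKM in E10.5 DCKO and at 9.84 RPKM in E11.5 and 10.998 RPKM in E10.5 controls. Fancg had a median of 1.56 RPKM in E11.5 and 6.37 RPKM in E10.5 DCKO, and of 4.22 RPKM in E11.5 and 2.66 RPKM in E10.5 controls. Each of these groups held a library in which Fancg was under 0.1 RPKM. Among E10.5 DCKO libraries, Fancd2 did not overlap Fancm nor Fancm Fanci, and all other neighbours in the 2 E10.5 orders overlapped.

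Between the sexes no member passed the threshold either: the E11.5 comparison of female with male libraries called 0 of 10 members, beside 5 genes or 0.0395% of all tested, and gave 0 of 10 at an unadjusted p under 0.05, beside 5.70%. The female minus male log2 difference was above 0 for 8 of 10 members with a median of 0.44, beside 56.2% of all genes and a median of 0.07. All 3 libraries with the fewest genes were male, and without them 5 of 10 members were above 0 with a median of -0.01. With library weights 4 of 10 were above 0, also with a median of -0.01. Germ cell markers moved along this contrast, with 12 of 12 above 0 at a median of 0.57, and their part in the members' values was not tested. X-linked Fancb averaged 7.46 ± 3.12 RPKM in female (SD, n = 10) and 5.49 ± 3.61 RPKM in male libraries (SD, n = 8), a log2 difference of 0.47 (SE 0.35, limma adjusted p = 0.904). Without the 3 libraries with the fewest genes it was 0.80 (limma adjusted p = 0.669). Fanca was the other way, at 7.14 ± 4.87 RPKM in female (SD, n = 10) and 20.8 ± 24.4 RPKM in male libraries (SD, n = 8), with a log2 difference of -0.89 (SE 0.51, limma adjusted p = 0.873) that was 0.02 without those 3 libraries.

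Whether the genotype difference depended on sex was tested as an interaction, the female minus the male difference. It called 0 of 10 members, beside 0% of all genes, and gave 0 of 10 at an unadjusted p under 0.05, beside 3.58%. The value was above 0 for 3 of 10 members with a median of -0.13, beside 53.4% of all genes and a median of 0.08. These turned on single libraries: 7 of 10 were above 0 with a median of 0.20 without male control 4, 6 of 10 with a median of 0.09 without both male DCKO 4 and male control 4, and 3 of 10 with a median of -0.57 without male DCKO 1. The smallest unadjusted p was that of Fancm, with an interaction of -0.98 (SE 0.58, 95% interval -2.20 to 0.24, limma adjusted p = 0.995). Fancm had 9.23 ± 3.70 RPKM in female DCKO (n = 6) and 11.4 ± 2.28 RPKM in female controls (SD, n = 4), and 13.2 ± 6.46 RPKM in male DCKO and 7.76 ± 2.31 RPKM in male controls (SD, n = 4 each). For Fancd2 the interaction was 0.06 (95% interval -2.21 to 2.32). Markers of other cells moved along this contrast, with 7 of 7 mesenchyme markers above 0 at a median of 2.28 and 4 of 4 erythroid markers tested at a median of 3.18, and their part in the members' values was not tested.

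The extreme values of the members gathered in few libraries. At E11.5, 14 of 180 member values were under 1 RPKM, and 9 of these lay in the 3 libraries with the fewest genes. These 3 held the lowest value for 7 of 10 members, that of Fancg tied at 0 with female DCKO 6, and the highest for 3 of 10. At E10.5 all 4 of 70 member values under 1 RPKM lay in the 2 libraries with the fewest genes, which held the lowest value for 6 of 10 members and the highest for 3 of 10. These libraries therefore lay at both ends of the members' ranges: male DCKO 1 had 74.5 RPKM of Fanca but 0.0339 RPKM of Fancc, and male control 4 had 53.2 RPKM of Fancd2 but 0.176 RPKM of Fance. The part of detection in these values was not tested.

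**Figure D4:**
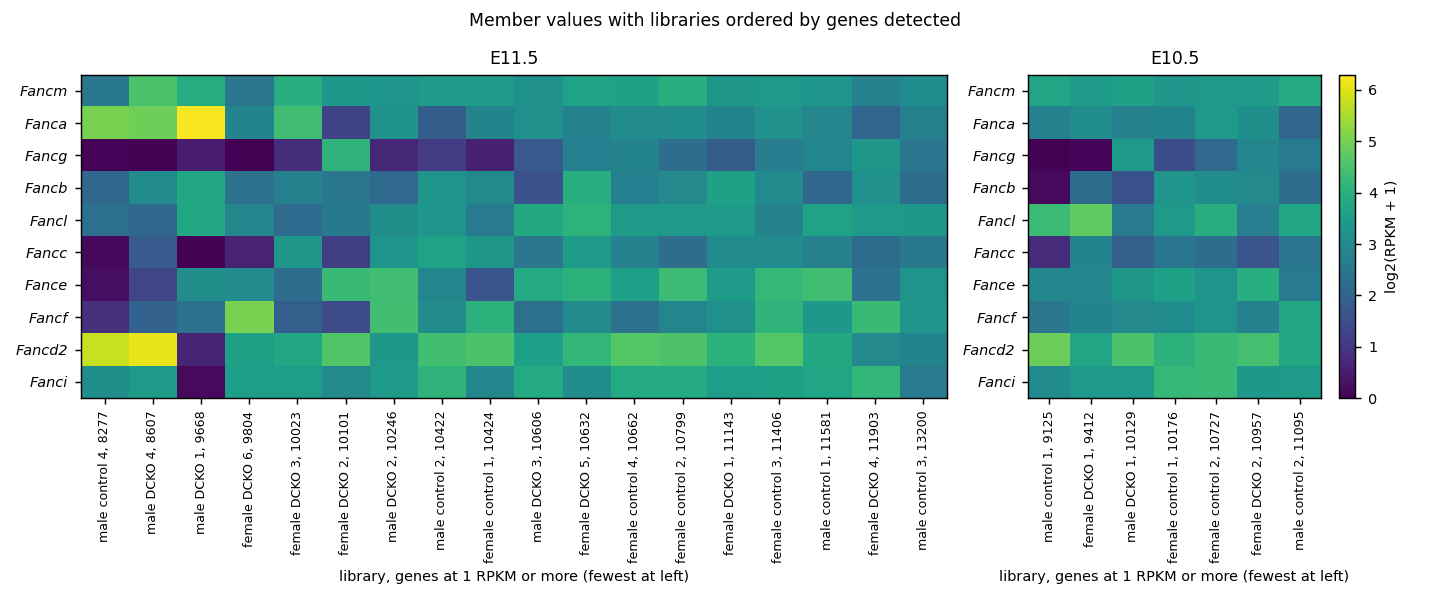
Level of each member (rows) as log2(RPKM + 1) in each library (columns), ordered from the fewest genes at 1 RPKM or more on the left to the most on the right, E11.5 in the left and E10.5 in the right panel. The darkest and the brightest cells lie toward the left, with Fanca at 74.5 RPKM and Fancc at 0.0339 RPKM in the same library, male DCKO 1.

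The map of libraries by genes detected also shows that members did not move as a block. Over the 45 pairs of members, Spearman rho across the 18 E11.5 libraries lay between -0.56 and 0.58 with a median of 0.08, and 27 pairs were above 0. Pairs of other genes were not summarised, so whether members were more or less alike than other genes is not known. For the 3 members with the highest median, the genes most like each by Spearman rho of 12667 genes over these 18 libraries were Zw10 (0.92), Folr1 (0.89) and Gstm3 (0.86) for Fancd2. For Fanci they were Med26 (0.86), Tmem237 (0.76) and Brdt (0.73). For Fancm they were Ncapg2 (0.91), Gigyf2 (0.89) and Ppat (0.88). Each is the highest of 12667 values over only 18 libraries, and how high a rho chance alone would give was not tested. The 18 libraries differ in the number of genes detected, as given above.

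Other genes of the pathway and its neighbours were followed as lists, and at E11.5 none of their genes was called between the genotypes. Of 8 partners of the core complex, its E2 enzyme and the deubiquitinase, 4 had a log2 difference above 0 with a median of 0.03, and 1 had an unadjusted p under 0.05. That gene was Faap24, the partner with which Fancm binds DNA, listed at 0 in 1 DCKO library, with a median of 2.63 and a highest value of 15.2 RPKM in DCKO, against a lowest of 0.836, a median of 8.63 and a highest of 23.9 RPKM in control PGCs. The groups overlapped, and its log2 difference was -1.56 (SE 0.54, limma adjusted p = 0.884). At E10.5 Faap24 differed by -0.21 (SE 0.91). Wdr48, a cofactor of the deubiquitinase Usp1, had a mean of 44.8 ± 25.0 RPKM over E11.5 DCKO libraries (SD, n = 10), against 31.2 ± 7.36 RPKM over control libraries (SD, n = 8), a difference of 0.39 (SE 0.29).

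Downstream of the substrate pair, 4 of 10 nucleases and translesion synthesis genes were above 0, with a median of -0.24. The 2 with the smallest p were Ercc4 and Ercc1, the subunits of the nuclease that cuts beside a crosslink. Ercc4 had a mean of 1.57 ± 1.03 RPKM over DCKO libraries (SD, n = 10), against 3.27 ± 2.29 RPKM over control libraries (SD, n = 8), and Ercc1 had 11.01 ± 5.80 RPKM over DCKO libraries (SD, n = 10), against 17.1 ± 10.1 RPKM over control libraries (SD, n = 8). Their log2 differences were -0.64 (SE 0.37, limma adjusted p = 0.912) and -0.55 (SE 0.36, limma adjusted p = 0.946). At E10.5 the differences were 0.65 for Ercc4 and 0.52 for Ercc1, and neither was called there. They rested on female DCKO 1, which had 19.4 RPKM of Ercc4 and 39.8 RPKM of Ercc1, and without it they were -0.29 and 0.06.

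Of 9 homologous recombination genes 5 were above 0, with a median of 0.02, and those with the smallest p were Rfwd3, a ubiquitin ligase, at -0.40 (SE 0.32) and Brca1 at -0.18 (SE 0.25). Of 7 replication stress genes 5 were above 0, with a median of 0.10, and 1, Chek1, had an unadjusted limma p under 0.05. Chek1, the effector kinase, had a mean of 22.0 ± 4.98 RPKM over DCKO libraries (SD, n = 10), against 15.4 ± 4.96 RPKM over control libraries (SD, n = 8), a log2 difference of 0.47 (SE 0.22, limma adjusted p = 0.902). Its adaptor Clspn differed by -0.36 (SE 0.24). The aldehyde-clearing enzymes Aldh2 and Adh5, which remove a source of crosslinks, differed by -0.13 (SE 0.28) and 0.05 (SE 0.25). Of 14 proliferation genes 4 were above 0, with a median of -0.04, and 1, Rrm2, had an unadjusted limma p under 0.05. Rrm2, a subunit of ribonucleotide reductase, had a mean of 72.3 ± 29.8 RPKM over DCKO libraries (SD, n = 10), against 97.9 ± 27.7 RPKM over control libraries (SD, n = 8). Its log2 difference was -0.59 (SE 0.25, limma adjusted p = 0.902). Ccnb1, a mitotic cyclin, differed by 0.27 (SE 0.23).

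At E10.5 none of these lists held a called gene or a gene with an unadjusted p under 0.05. The median log2 differences there were -0.27 for the core partners, 0.48 for the nucleases and translesion genes (7 of 9 tested above 0), 0.15 for homologous recombination, -0.07 for replication stress, 0.05 for aldehyde clearance and -0.21 for proliferation, beside -0.05 over all genes tested.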

How the data were processed

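PolyA RNA of sorted PGCs was amplified (Ovation RNA-Seq V2) before sequencing, per the labels' protocols. The authors deposited 1 table of RPKM values per stage, 1 column per library; the submitters' processing notes name mm9, TopHat2 2.1.0, Cufflinks 2.2.1 and Cuffdiff, without roles. RPKM hold no counts, so the depth is unknown and no counting interval is given. Of 37 labelled samples, the 12 at E13.5 were not analysed here. Groups came from the labels.

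Genes averaging 1 RPKM or more were tested with limma 3.58.1 (R 4.3.3, trend) on log2(RPKM + 1), which understates changes of low genes. Sex by genotype gave 4 means in the E11.5 model, and genotype and sex were additive terms at E10.5. Adjusted p under 0.05 (Benjamini-Hochberg) was the threshold, and all tests were two-sided. Members were also tested by exact permutation, and the correlation with 100000 resamples. The fit was tested on simulated data.

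Named were all members, Dnmt1, the 2 genes per list with the smallest E11.5 genotype p, and the 3 genes most like each of the 3 most abundant members. Fancd2os was added after its values were seen. Members and lists were chosen with earlier results of these data known. Other pseudocounts, filters, scalings, models and library omissions were tried.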

Additional observations from a re-analysis of the deposited data

Results flagged for a closer look

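Among 40 member-by-group sets of 4 or more libraries, 5 held a library whose gap to the others was large for the group's whole range by Dixon's criterion, where chance flags about 1 in 20. In Fancf, male DCKO 2 had 19.8 RPKM, with the other male DCKO libraries between 2.95 and 4.07 RPKM, and male control 4 had 0.843 RPKM, with the other male controls between 7.26 and 9.35 RPKM. In Fanci, male DCKO 1 had 0.114 RPKM, with the other male DCKO libraries between 9.74 and 13.4 RPKM. In Fancb, female control 4 had 5.60 RPKM, with the other female controls between 6.87 and 7.04 RPKM, and male control 2 had 8.54 RPKM, with the other male controls between 3.29 and 3.67 RPKM. Male DCKO 1 and male control 4 are among the 3 E11.5 libraries with the fewest genes, and the part of that was not tested.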

How the results depend on the processing

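The counts of members past the threshold were 0 for genotype at E11.5 and E10.5, for sex and for the interaction under all 32, 20, 30 and 31 alternatives that could be run; sex could not be estimated with the replicate block. By exact permutation the count at E10.5 was 0, but with libraries left out no p there can fall below 0.0667, so those 0 counts say nothing. At E11.5 it ranged from 0 to 1 on leaving out single libraries, the 1 being Fancd2 without male DCKO 4. Dnmt1 at E11.5 lay between -2.31 and -1.68 but missed the threshold under 19 of 32 alternatives. Depth is unknown, and E10.5 has only 3 DCKO libraries.

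Signs changed as follows, also for differences as large as those of Fancg and Fancl at E10.5, of Wdr48 at E11.5 and of Fanca by sex, and the cause was not tested. With the replicate block, log2 genotype differences were -0.068 for Fancl at E11.5, and -0.0096 for Fanca, 0.090 for Fancb, -0.18 for Fancd2 and 0.033 for Fancm at E10.5. With the block by title number they were -0.058 for Fancb, -0.068 for Fance, 0.17 for Fancf, 0.024 for Fanci and -0.17 for Fancl at E11.5, and -0.26 for Fancc at E10.5. A library alone in its block adds nothing to the genotype difference. At E10.5 the replicate block thus gave the members the same differences as leaving out male control 2. The block by title number gave the same as leaving out male control 1. These were counted as separate alternatives. Same-numbered E11.5 libraries correlated at -0.17 to 0.15 (8 pairs, median -0.05). Same-title-numbered ones correlated at -0.02 to 0.49 (16 pairs, median 0.08), with 7 over 0.1. The highest was that of male control 3 with female DCKO 4, the 2 libraries highest in other cells' markers. Pairs with different title numbers were not summarised, and male control 3 with male DCKO 1, 1 such pair, had 0.38. The block by title number lowered the median residual SD at E11.5 from 0.96 to 0.81. Male DCKO 1 and female DCKO 5, alone under their title numbers, add nothing to that fit. Leaving out male DCKO 1 alone gave 0.90. What the title number marks is not stated, and the main model used neither number. Libraries that share a title number may still not be independent in the main tests. Library weights gave -0.18 for Fance, -0.036 for Fancl, -0.11 for Fancm, 0.085 for Aldh2 and -0.21 for Adh5 at E11.5, and -0.52 for Fancc and 0.014 for Fancm at E10.5. Quantile normalization gave 0.0071 for Fancf and -0.0068 for Adh5 at E11.5, and -0.088 for Fancc and 0.015 for Fancm at E10.5, median-of-ratios scaling gave 0.019 for Fancm at E10.5, and a pseudocount of 0.1 gave 0.082 for Fancb at E10.5. Without a sex term Fancb was 0.067 and Fancd2 -0.033 at E10.5.

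Without the 2 libraries with the fewest genes, Fancm was -0.085, Aldh2 0.028 and Adh5 -0.12 at E11.5, and Fancc -0.64 at E10.5. Without 3, Fancb was -0.27, Fanci 0.043, Fancm -0.20, Wdr48 -0.046, Aldh2 0.074 and Adh5 -0.20, and Fanca by sex 0.021. Without the 2 libraries highest in other cells' markers, Adh5 was -0.045 at E11.5, and at E10.5 Fanca was -0.0084, Fancc -0.12, Fancd2 -0.092, Fance -0.023, Fancg -0.36, Fancl 0.057 and Fancm 0.11. At E10.5 these 2 were male control 2 and male DCKO 1, the only male DCKO library. The difference left is then that between female libraries, and leaving out male DCKO 1 alone gave the members the same values. Leaving out single libraries gave at E11.5 -0.018 to 0.35 for Fancb, -0.27 to 0.45 for Fance, -0.34 to 0.12 for Fancf, -0.57 to 0.051 for Fanci, -0.11 to 0.21 for Fancl, -0.20 to 0.021 for Aldh2 and -0.089 to 0.14 for Adh5. At E10.5 it gave -0.0096 to 0.31 for Fanca, -0.61 to 0.090 for Fancb, -0.26 to 0.37 for Fancc, -0.18 to 0.22 for Fancd2, -0.023 to 0.53 for Fance, -0.36 to 1.59 for Fancg, -1.20 to 0.057 for Fancl and -0.077 to 0.11 for Fancm.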
